A study of Mus musculus with 4 samples.

Results

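Cdhr1, Lrit1, 2610528A11Rik, Opn4 and Vstm4 are 5 protein-coding genes of mouse chromosome 14. They were picked by symbol from the 32285 genes counted, because earlier results of these data had set their levels in the retinal pigment epithelium (RPE) of Vldlr-/- mice apart from those of wild-type (WT) mice. Their RPE ratios are therefore given as a description, with no test. The libraries were made from cells of the RPE, the pigmented layer behind the photoreceptors, and of the choroid, the vascular layer beneath it, after the neural retina had been lifted off. The 4 groups were WT mice at 1 month, Vldlr-/- mice at 1 month, WT mice at 2 months and Vldlr-/- mice at 2 months, with 1 droplet (10x Genomics) library each. Vldlr-/- mice lack the very low density lipoprotein receptor in all cells, so a difference in RPE cannot be assigned to the RPE's own loss of the receptor. The sources used here do not give the number of animals per library.

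Separate roles are known for the 5 genes. Cdhr1 encodes photoreceptor cadherin, a membrane protein at the base of the outer segment, where new discs form. Lrit1 encodes a leucine-rich repeat transmembrane protein of the photoreceptor synapse, and its neighbour Lrit2 a related protein. 2610528A11Rik is the mouse counterpart of the human gene for a secreted peptide ligand of the receptor GPR15. Opn4 encodes melanopsin, the light-sensing opsin of intrinsically photosensitive retinal ganglion cells, and Vstm4 encodes a transmembrane protein with an immunoglobulin domain. The RPE faces the photoreceptor outer segments and takes up their shed tips, and it can carry photoreceptor RNA when tissue is taken apart.

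On the GRCm38 build, the annotation placed Cdhr1 on the minus strand at chr14:37077857-37098347, with 17 exons. Lrit1 lay on the plus strand at chr14:37054830-37064946, and 2610528A11Rik on the minus strand at chr14:37102140-37114022. These 3 genes lay within 59.2 kb, in the order Rgr, Lrit1, Lrit2, Cdhr1, 2610528A11Rik, Ghitm. Opn4 (chr14:34590618-34600142, minus strand) and Vstm4 (chr14:32856756-32939491, plus strand) lay farther off, and the 5 genes together spanned 4.26 Mb. Opn4 overlaps an antisense transcript, Gm49012, which had 0 UMIs in RPE-like barcodes of all 4 libraries. Vstm4 overlaps a processed pseudogene, Gm7734.

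The 250 bases before the RefSeq start site of 4 of the genes (RefSeq, GRCm38.p6) are shown because the members that were higher in knockout RPE, Cdhr1, Lrit1 and 2610528A11Rik, lie close together and Opn4 differed in the opposite direction. Each sequence runs 5′ to 3′ on its gene's strand. Capitals mark TAATCC, the core letters of the motif of the photoreceptor and RPE factors CRX and OTX2, or CATGTG, an E-box form bound by the pigment cell factor MITF. The windows are chr14:37098348-37098597 (minus) for Cdhr1, chr14:37054580-37054829 (plus) for Lrit1, chr14:37110102-37110351 (minus) for 2610528A11Rik and chr14:34600143-34600392 (minus) for Opn4. That of 2610528A11Rik starts at its protein-coding transcript and lies in an intron of a longer annotated one.
Cdhr1: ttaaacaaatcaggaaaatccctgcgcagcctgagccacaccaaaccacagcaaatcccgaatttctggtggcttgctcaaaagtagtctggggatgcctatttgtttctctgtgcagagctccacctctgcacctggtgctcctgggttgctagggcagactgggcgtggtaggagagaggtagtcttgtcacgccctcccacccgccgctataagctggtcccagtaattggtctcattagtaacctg
Lrit1: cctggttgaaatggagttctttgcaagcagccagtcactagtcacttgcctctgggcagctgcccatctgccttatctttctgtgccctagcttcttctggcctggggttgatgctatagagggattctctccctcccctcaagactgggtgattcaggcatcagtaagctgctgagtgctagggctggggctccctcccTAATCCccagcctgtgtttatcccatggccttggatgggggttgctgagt
2610528A11Rik: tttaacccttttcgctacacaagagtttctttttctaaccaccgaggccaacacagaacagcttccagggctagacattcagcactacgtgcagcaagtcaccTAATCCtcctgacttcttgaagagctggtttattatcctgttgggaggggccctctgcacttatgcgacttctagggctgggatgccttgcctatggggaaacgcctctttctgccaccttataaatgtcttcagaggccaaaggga
Opn4: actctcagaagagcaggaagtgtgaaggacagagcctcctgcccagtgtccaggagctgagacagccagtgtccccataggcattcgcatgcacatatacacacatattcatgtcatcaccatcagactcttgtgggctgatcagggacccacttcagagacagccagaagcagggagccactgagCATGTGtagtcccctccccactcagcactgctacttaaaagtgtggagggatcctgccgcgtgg

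On either strand, TAATCC was found in the windows of Lrit1 and 2610528A11Rik, and also in those of the neighbours Rgr and Lrit2, whose RPE levels differed by less than 2-fold at 2 months. It was present in 6.25% of the 32851 promoter windows of that length. CATGTG was found in the Opn4 window and in 12.3% of all windows. The cyclic AMP response element, TGACGTCA, was in none of the 5 members' windows and in 1.55% of all. No motif overlapped another. The windows of Cdhr1 and Vstm4 held none of these 3 strings of letters.

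A barcode was kept if it had 300 or more genes and no more than 30% of its UMIs (unique molecules counted) from mitochondrial genes, which left 1549 and 1819 at 1 month and 2047 and 1140 at 2 months (WT and Vldlr-/- in each case), from libraries of 11194301 to 23070271 UMIs. The 2 ages were counted with different versions of the counting software, so age and version cannot be told apart, and knockout was compared with WT within an age only. One barcode was shared between libraries, between both knockout libraries, and 0 between any other pair. RPE-like barcodes numbered 236 (WT) and 164 (Vldlr-/-) at 1 month and 1458 and 606 at 2 months, in 5 clusters built without the chromosome 14 genes. Clusters 0 and 1 held most of them at 1 month, and clusters 1, 2 and 5 most at 2 months in WT. The RPE markers summed to 93211, 90867, 54132 and 50669 UMIs per 1000000 UMIs (CPM) in these barcodes, in the order WT and Vldlr-/- at 1 month, then WT and Vldlr-/- at 2 months, and of the 6 markers only Best1 was at 0, at 1 month. Rod-like barcodes numbered 164, 479, 37 and 22 in that order, and all 10 rod markers were detected in each. Vldlr itself had 78 UMIs in WT and 4 in knockout RPE-like barcodes at 1 month, and 2788 and 218 at 2 months, which is lower in the knockouts as labelled. In rod-like barcodes at 1 month it was less far apart, at 324 CPM in WT and 213 CPM (393 UMIs) in knockout. Over all kept barcodes it was lower in knockout at 2 months (142 against 34.0 CPM) but higher at 1 month (24.9 against 39.3 CPM), where rod-like barcodes were more numerous in the knockout library. The sources used here do not state whether the counted end of the transcript lies in the deleted part, so this check of the labels is clear for RPE-like barcodes and not for rods.

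Cdhr1, the photoreceptor cadherin gene, was high in rods of every library and, in RPE, in both knockout libraries. In RPE-like barcodes it stood at 63.1 CPM (95% Poisson interval 44.7 to 86.7) in WT and 590.4 CPM (515 to 674) in Vldlr-/- mice at 1 month. At 2 months it stood at 81.5 CPM (77.1 to 86.0) in WT and 461 CPM (447 to 477) in Vldlr-/- mice. At each age the knockout interval lay above the WT interval, which is a description only, since this contrast chose the gene. The counts behind these values were 38, 219, 1282 and 3727 UMIs. The knockout level was 9.25 times the WT level at 1 month, a log2 ratio of 3.21 (95% interval 2.72 to 3.76), and 5.66 times at 2 months, or 2.50 (2.41 to 2.59). All intervals cover counting error only: with 1 library per group, differences between animals were not measured and no test between groups was possible.

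Lrit1, the synapse gene, was also higher in both knockout libraries in RPE-like barcodes, on far fewer counts. It stood at 4.99 CPM (3 UMIs) in WT and 70.1 CPM (26 UMIs) in Vldlr-/- mice at 1 month, and at 3.05 CPM (48 UMIs) and 40.5 CPM (327 UMIs) at 2 months. The log2 ratio was 3.62 (95% interval 2.11 to 6.18) at 1 month, from 29 UMIs in all, and 3.72 (3.29 to 4.20) at 2 months, a 13.2-fold difference at the later age. The 1-month intervals were 1.03 to 14.6 CPM in WT and 45.8 to 103 CPM in knockout.

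2610528A11Rik was rare over all kept barcodes, at 1.38 CPM in WT and 3.50 CPM in Vldlr-/- mice at 2 months. It had 0 and 2 UMIs in RPE-like barcodes at 1 month, where no fold is given, and 8 and 34 UMIs at 2 months, which is 0.508 CPM (0.219 to 1.00) in WT and 4.21 CPM (2.92 to 5.88) in Vldlr-/- mice. The log2 ratio at 2 months was 2.98 (95% interval 1.91 to 4.37). All kept barcodes of that age held 30 UMIs in WT and 52 in knockout, so most WT UMIs of this gene lay outside RPE. At 1 month, barcodes like T and natural killer cells held 2 UMIs in WT and 6 in knockout. Gpr15, the receptor of its peptide, had 0 UMIs in RPE-like barcodes of all 4 libraries, which allows up to 4.99, 8.09, 0.191 and 0.371 CPM.

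Opn4 was found in RPE of WT mice at 2 months and was nearly absent from the knockout library of that age. RPE-like barcodes held 97 UMIs (6.16 CPM, 5.00 to 7.52) in WT and 1 UMI (0.124 CPM, 0.00313 to 0.690) in Vldlr-/- mice, giving a log2 ratio of -5.06 (-10.96 to -3.13). The WT UMIs were spread over 78 of 1458 barcodes. At 1 month there were 2 and 0 UMIs, below the depth at which a difference could be seen. Of the 6 retinal ganglion cell markers, Nefm, Slc17a6, Pou4f1 and Pou4f2 were at 0 in RPE-like barcodes of all 4 libraries. The ganglion list summed to 10.1 CPM in WT and 17.8 CPM in knockout RPE at 2 months, from Rbpms and Nefl in WT and from Rbpms alone in the knockout. The part of ganglion cell RNA in the Opn4 difference was not tested.

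Vstm4 differed least. In RPE-like barcodes it had 1 and 2 UMIs at 1 month, and 51 and 53 UMIs at 2 months, which is 3.24 CPM (2.41 to 4.26) in WT and 6.56 CPM (4.92 to 8.58) in Vldlr-/- mice. The log2 ratio at 2 months, 1.02 (95% interval 0.44 to 1.60), lay just above the 2-fold line used here, and the genes around it on chromosome 14 (within 2 Mb of the members) that came closest below that line were Phf7 at 0.57, Capn7 at 0.56 and Mapk8 at 0.55.

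**Figure D1:**
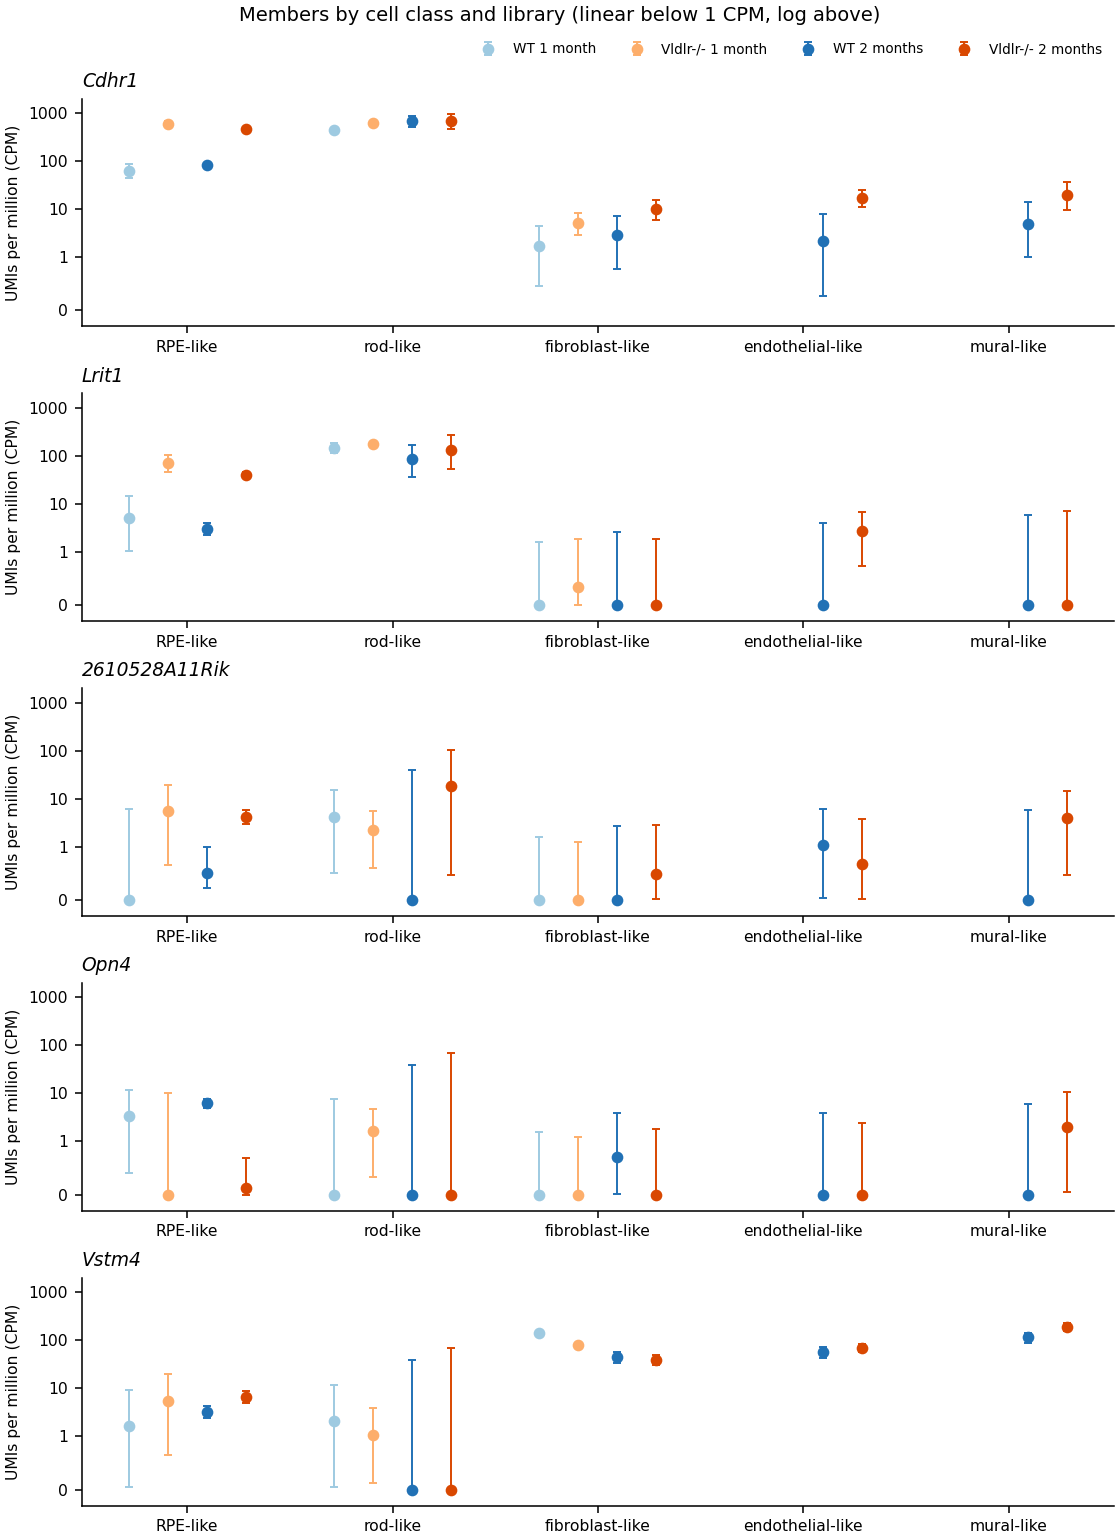
Levels of the 5 genes (CPM of the class, linear below 1 and logarithmic above) by cell class and library, with 95% Poisson intervals. Classes with under 30 barcodes in a library are left out, except the 22 rod-like barcodes of Vldlr-/- mice at 2 months. In RPE-like barcodes Cdhr1 lies at 590.4 and 461 CPM in the knockouts and at 63.1 and 81.5 CPM in WT.

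The share of RPE-like barcodes with a Cdhr1 UMI was also higher in both knockout libraries once depth was made equal. With every barcode thinned to 1000 UMIs, 7.5% of 200 WT barcodes (95% exact binomial interval 4.26 to 12.1%) and 47.1% of 121 knockout barcodes (37.97 to 56.4%) held Cdhr1 at 1 month. At 2 months the shares were 6.91% of 1418 (5.65 to 8.36%) and 33.6% of 563 (29.7 to 37.6%). Between 36 and 43 shallower barcodes per library were left out. Without thinning they were 13.1%, 56.1%, 41.4% and 78.9%, at median depths of 2069, 1802, 8253 and 9433 UMIs. The Cdhr1 UMIs of knockout RPE lay in many barcodes and not in a few very high ones. In knockout RPE at 1 month 2.48% of thinned barcodes held 3 or more UMIs, with a highest count of 4, and at 2 months 3.02% did, with a highest count of 6.

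In fibroblast-like barcodes, a type that should lack Cdhr1, the thinned shares were 0.317%, 0.889%, 0.769% and 1.15%, at median depths of 6668, 5356, 8899 and 8955 UMIs before thinning. All 4 RPE shares lay above these. Lrit1 was held by 0.5%, 5.79%, 0.494% and 3.91% of thinned RPE-like barcodes, so the knockout share was again the higher one at each age. The thinned shares of 2610528A11Rik, Opn4 and Vstm4 were under 1% in all 4 libraries, near the level of single UMIs, and no order is read from them.

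**Figure D2:**
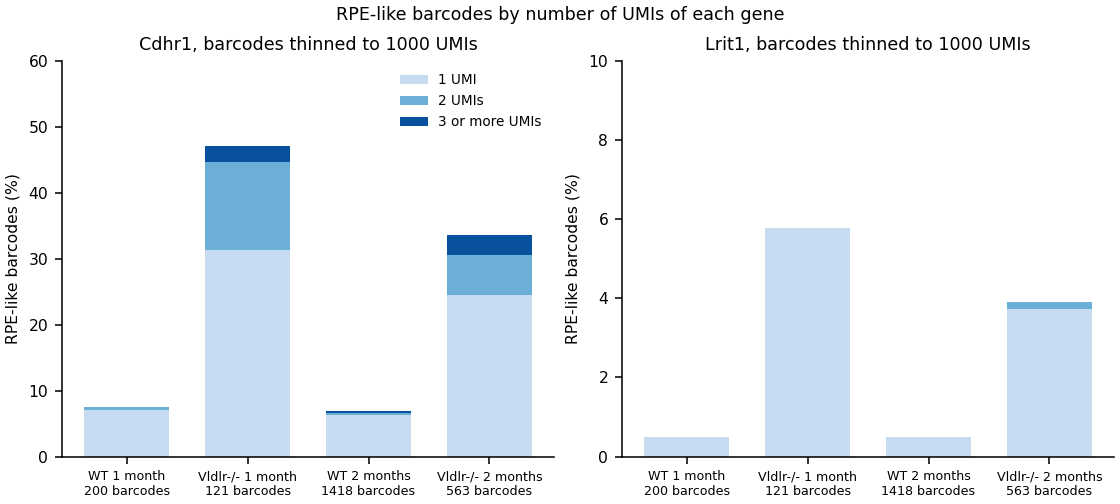
Share of RPE-like barcodes (%) holding 1, 2, or 3 or more UMIs of Cdhr1 (left) and Lrit1 (right) after each barcode was thinned to 1000 UMIs, by library. Bars for Cdhr1 reach 47.1% and 33.6% in the knockouts and 7.5% and 6.91% in WT, and the axis for Lrit1 ends at 10%.

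In knockout RPE most barcodes with Lrit1 also held Cdhr1. Of the RPE-like barcodes with a Lrit1 UMI, 14 of 17 (82.4%) in Vldlr-/- mice at 1 month and 129 of 132 (97.7%) at 2 months also held Cdhr1, which was in 56.1% and 78.9% of all RPE-like barcodes of those libraries. In WT they were 0 of 3 at 1 month and 31 of 45 (68.9%) at 2 months, where 41.4% of all held Cdhr1. For 2610528A11Rik in knockout RPE at 2 months, 28 of 30 barcodes held Cdhr1. Lrit2, whose level was alike in both 2-month libraries, gave 106 of 110 (96.4%) in the knockout. The part of barcode depth in these shares was not tested.

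Cdhr1 and Lrit1 were higher in the knockout in each RPE-like cluster that could be compared. Over the 7 comparisons of a cluster and an age with at least 30 barcodes per library, the log2 ratio of Cdhr1 ran from 2.06 to 4.76 and that of Lrit1 from 3.18 to 4.78. Some rest on few WT UMIs. Lrit1 had 2 and 16 UMIs (WT and knockout) in cluster 0 at 1 month and 1 and 12 at 2 months. In cluster 1 at 1 month it had 1 and 8, with an interval of 0.78 to 9.15, and Cdhr1 had 3 and 59. Cluster 2, led by Enpp2, Itgb8, Rdh10 and Stra6, had the highest Cdhr1 level in both genotypes at 2 months, 132 CPM in WT and 609 CPM in Vldlr-/- mice. Cluster 9, led by Ankfn1 and Trpm3, had the lowest in WT, 37.5 CPM, and stood at 432 CPM in the knockout. Its barcodes had a median of 24217 UMIs, the most of all RPE-like clusters, and doublets among them could not be told from large cells.

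Opn4 of WT RPE at 2 months was uneven between the clusters. It stood at 10.95 CPM (48 UMIs) in cluster 1, which was led by Cox8b and Ttr, and at 9.53 CPM (29 UMIs) in cluster 9, but at 2.50 CPM (13 UMIs) in cluster 2 and 1.89 CPM (4 UMIs) in cluster 5. Melanocyte markers came second to RPE markers in clusters 1 and 9 (mean log2 folds of 1.13 and 0.88, against 2.06 and 1.96). At clustering resolution 2.0, a group led by Cox8b and Pmel, with both marker lists near equal, stayed unnamed. It held 116 WT and 18 knockout barcodes at 2 months. RPE-like barcodes of that clustering held 77 and 1 Opn4 UMIs at 2 months. Knockout barcodes had 0 UMIs in clusters 0, 1, 2 and 5 and 1 in cluster 9. Against a floor of 3 counts per library, WT was at least 4.98-fold higher in cluster 1 and at least 1.53-fold higher in cluster 2. Vstm4 was higher in the knockout in cluster 2 (log2 ratio 1.64, 0.68 to 2.62) and cluster 9 (1.90, 0.59 to 3.75), had 7 UMIs in WT and 0 in knockout in cluster 0, and gave -0.56 (-4.05 to 1.47) in cluster 5. In cluster 1 Vstm4 gave 0.86 (-0.91 to 2.37) on 11 and 6 UMIs. The interval of the ratio thus included 0 in cluster 1, and also in clusters 0 and 5, where the knockout value was the lower one.

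**Figure D3:**
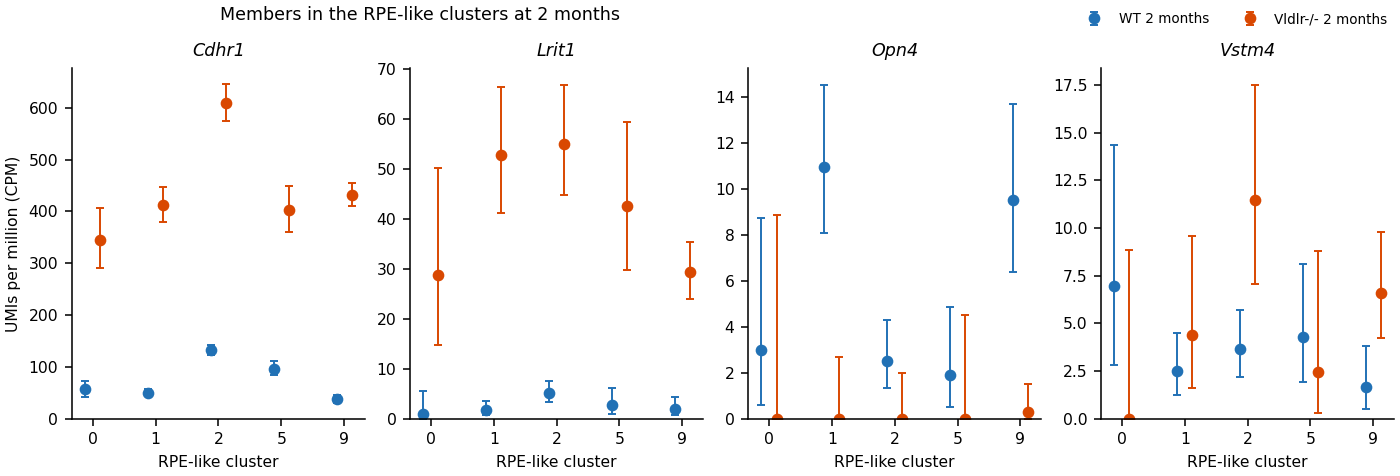
Levels (CPM, linear axes from 0) of Cdhr1, Lrit1, Opn4 and Vstm4 in the 5 RPE-like clusters at 2 months, with 95% Poisson intervals. Cdhr1 is higher in the knockout in all 5 clusters, Opn4 is highest in WT clusters 1 and 9 at 10.95 and 9.53 CPM, and the order of the genotypes for Vstm4 changes between clusters.

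RPE-like barcodes also differed in how much nuclear RNA they kept, as read from Malat1, a nuclear long noncoding RNA. Those under 1000 CPM of Malat1 were 1292 of the 1458 WT and 437 of the 606 knockout barcodes at 2 months. The log2 ratio of Cdhr1 was 2.40 among them and 3.41 among those at or above 1000 CPM. At 2 months WT barcodes at or above 1000 CPM held less Cdhr1 than the others, 40.6 CPM against 92.1 CPM, and the knockout held 432 and 487 CPM. At 1 month the log2 ratio was 3.25 under 1000 CPM and 2.95 at or above it, and the WT order was the other way, 61.6 CPM under it and 71.1 CPM (7 UMIs) at or above it. For 2610528A11Rik the ratios under and at or above 1000 CPM at 2 months were 3.62 and 1.51. The latter rests on 3 and 11 UMIs, with an interval of -0.25 to 4.15.

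In rods, where Cdhr1 and Lrit1 are known to act, the genotypes were closer. Cdhr1 in rod-like barcodes stood at 431 CPM (205 UMIs) in WT and 626 CPM (1156 UMIs) in Vldlr-/- mice at 1 month, a log2 ratio of 0.53 (0.32 to 0.76). Of the 7913 genes compared in rods at 1 month, 5.27% were at least 2-fold apart, and neither member was. At 2 months it stood at 673 CPM (63 UMIs) in WT and 674 CPM (36 UMIs) in 22 knockout barcodes. RPE of WT mice, at 63.1 and 81.5 CPM, thus lay well below rods, and knockout RPE, at 590.4 and 461 CPM, near them. Lrit1 in rods stood at 145, 177, 85.4 and 131 CPM, on 69, 326, 8 and 7 UMIs, and its log2 ratio at 1 month, 0.27, had an interval that included 0 (-0.10 to 0.68). 2610528A11Rik had 2, 4, 0 and 1 UMIs in rods, Opn4 0, 3, 0 and 0, and Vstm4 1, 2, 0 and 0.

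Rod-marker RNA in RPE-like barcodes was measured beside these levels. The 10 rod markers summed to 366 and 709 CPM in WT and knockout RPE at 1 month, and to 67.2 and 40.1 CPM at 2 months, with all 10 detected each time. Rods held 5.75, 8.35, 7.48 and 7.38 Cdhr1 UMIs per 1000 rod-marker UMIs in the 4 libraries. RPE held 173, 833, 1212 and 11503. At the ratio seen in rods, the rod-marker UMIs of RPE-like barcodes would bring 1.27, 2.20, 7.92 and 2.39 Cdhr1 UMIs, against the 38, 219, 1282 and 3727 counted. For Lrit1 they would bring 0.426, 0.620, 1.01 and 0.465 UMIs, against 3, 26, 48 and 327. These figures take carried rod RNA to be made up as in rod-like barcodes. How much of either gene in RPE-like barcodes was rod RNA was not tested.

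**Figure D4:**
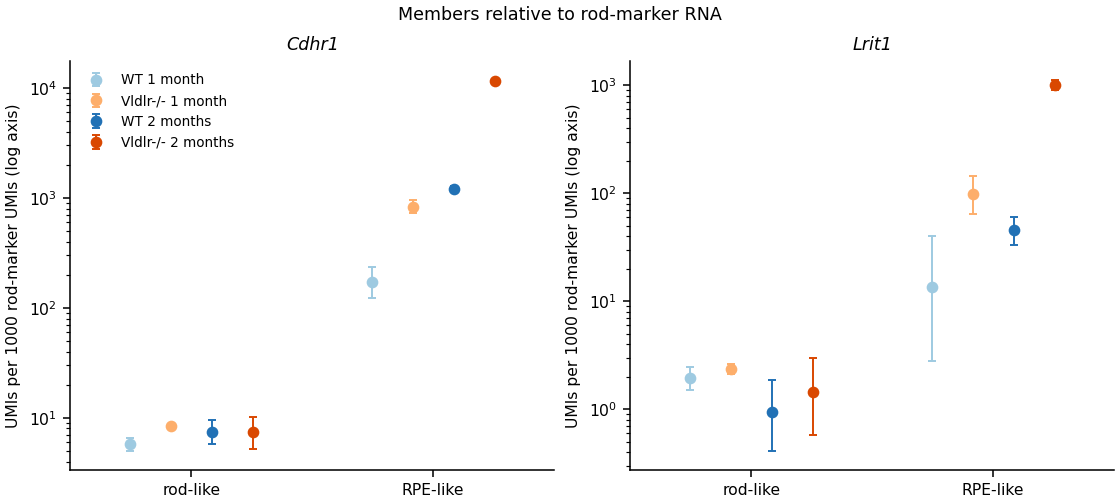
UMIs of Cdhr1 (left) and Lrit1 (right) per 1000 UMIs of 10 rod markers in rod-like and RPE-like barcodes of the 4 libraries, on logarithmic axes with 95% intervals. Rod-like values for Cdhr1 lie between 5.75 and 8.35, and RPE-like values between 173 and 11503.

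Outside RPE, rods and a cluster with rod and cone markers alike, Cdhr1 was scarce. Fibroblast-like barcodes held 4, 15, 4 and 20 UMIs (1.70, 5.04, 2.85 and 9.88 CPM), and endothelial-like barcodes 2 and 25 UMIs in WT and knockout at 2 months. RPE markers in these classes at 2 months summed to 874 CPM in WT and 1072 CPM in knockout fibroblasts, 1553 and 1343 CPM in endothelial-like barcodes, and 4833 and 1842 CPM in mural-like ones. At the ratio of Cdhr1 to RPE markers seen in WT RPE of that age they would bring 1.85, 2.17 and 4.54 Cdhr1 UMIs to the WT barcodes, where 4, 2 and 3 were counted. At the ratio seen in knockout RPE, they would bring 19.8 UMIs to fibroblasts, where 20 were counted, 18.3 to endothelial-like barcodes, where 25 were, and 8.59 to mural-like ones, where 10 were. The part of free RNA in these counts was not tested. In knockout fibroblasts at 1 month, RPE markers would bring 2.70 UMIs and rod markers 12.9, against 15 counted. B-like barcodes at 1 month held 1 Cdhr1 UMI in WT and 14 in knockout, and barcodes like T and natural killer cells 1 and 6. An unnamed cluster led by Lyz2 and Cybb held 0 and 12 at that age. Where these UMIs came from was not tested. The cluster with rod and cone markers alike, left unnamed, held 439 CPM in WT and 687 CPM in knockout at 2 months.

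Vstm4, by contrast with the other 4, was highest in cells of the choroid and its vessels. Mural-like barcodes stood at 470.1 and 512 CPM at 1 month, from only 20 and 17 barcodes, and at 114 (71 UMIs) and 189 CPM (97 UMIs) at 2 months, giving a log2 ratio of 0.73 (0.28 to 1.20). Fibroblast-like barcodes stood at 138 CPM (325 UMIs) in WT and 78.3 CPM (233 UMIs) in Vldlr-/- mice at 1 month, giving a log2 ratio of -0.82 (-1.07 to -0.57), which is less than 2-fold. At 1 month 1.61% of the 10987 genes compared in fibroblasts were at least 2-fold lower in knockout and 3.61% were 2-fold apart either way; at 2 months 1.34% were lower. At 2 months they stood at 44.2 and 39.0 CPM, -0.18 (-0.68 to 0.33). In single fibroblast-like clusters at 1 month the ratio was -0.72 (-0.99 to -0.45) in cluster 4, the largest, and near 0 (0.11) in cluster 13. Endothelial-like barcodes at 2 months held 56.0 and 69.6 CPM (0.31, -0.18 to 0.82). The mural-marker RNA of RPE-like barcodes at 2 months, 122 and 130.1 CPM with all 8 markers detected, would bring 8.67 and 7.10 Vstm4 UMIs, against 51 and 53 counted. Only mural RNA is counted here, though fibroblast-like and endothelial-like barcodes held Vstm4 too. How much of the RPE count was carried RNA was not tested.

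A group of barcodes seen at 2 months only, led by Gpx3, Penk and Optc and left unnamed, held both Opn4 and Vstm4. Opn4 had 16 UMIs (13.8 CPM, 7.90 to 22.4) in 79 WT barcodes and 0 in 18 knockout barcodes, where up to 8.50 CPM could be missed. Vstm4 had 75 UMIs (64.8 CPM) and 17 UMIs (48.2 CPM).

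The members were then set against the genes around them. Within 2 Mb of the outermost members the annotation held 110 genes, and a gene was compared in RPE where both libraries of an age had at least 30 UMIs of it together. At 1 month 12 passed, and of the 5 members Cdhr1 alone, which was at least 2-fold higher, where 3.44% of all 3633 genes compared were and 6.17% were 2-fold apart either way. At 2 months 42 passed, all 5 members among them: 4 members were at least 2-fold higher in knockout, where 3.27% of all 11856 genes compared were, and Opn4 was at least 2-fold lower, where 1.08% were. Nothing is read from these shares, since that contrast chose the members. Without the members, 2 of 37 window genes were at least 2-fold higher and 0 lower at 2 months, beside 4.35% of all genes in either direction. At 1 month 1 of 11 was higher and 0 lower.

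The other genes beside Cdhr1 differed by less than 2-fold in RPE where at least 30 UMIs were counted. Rgr, which encodes an opsin-like receptor of the RPE that binds retinal, gave log2 ratios of 0.30 (0.25 to 0.36) at 1 month and 0.11 (0.10 to 0.12) at 2 months. Lrit2, between Lrit1 and Cdhr1 and only 2.98 kb and 4.11 kb from them, had 323 UMIs in WT and 172 in knockout at 2 months, 20.5 and 21.3 CPM and a log2 ratio of 0.06 (-0.22 to 0.32). At 1 month it had 8 and 13 UMIs, under the minimum of 30, with a log2 ratio of 1.37 (0.02 to 2.88), which is past 2-fold as far as so few counts can show. Ghitm, a mitochondrial inner membrane protein gene on the far side of 2610528A11Rik, gave -0.25 (-0.58 to 0.07) and -0.46 (-0.53 to -0.40). Ccser2, beyond Rgr, gave -0.31 (-0.58 to -0.06) at 2 months. Of the 6 genes from Rgr to Ghitm, the 3 members were past 2-fold at 2 months and the 3 others were not. Nothing is read from this split, since the RPE contrast chose the members.

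Around Opn4 and Vstm4 few neighbours had UMIs in RPE. The genes next to Opn4, 9230112D13Rik and Ldb3 on one side and Gm49012 and Gm49024 on the other, had at most 16 UMIs in a library. Beside Vstm4, Lrrc18 had 24 and 30 UMIs at 2 months, a log2 ratio of 1.28 (0.46 to 2.12), while Tmem273, Fam170b and Wdfy4 had at most 4. The other window gene past 2-fold at 2 months was Sh3bp5, with 12 and 18 UMIs (1.53, 0.41 to 2.73), and at 1 month Pbrm1, with 18 and 24 UMIs (1.10, 0.17 to 2.08). Pbrm1 at 2 months, on 1087 and 736 UMIs, gave 0.40.

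**Figure D5:**
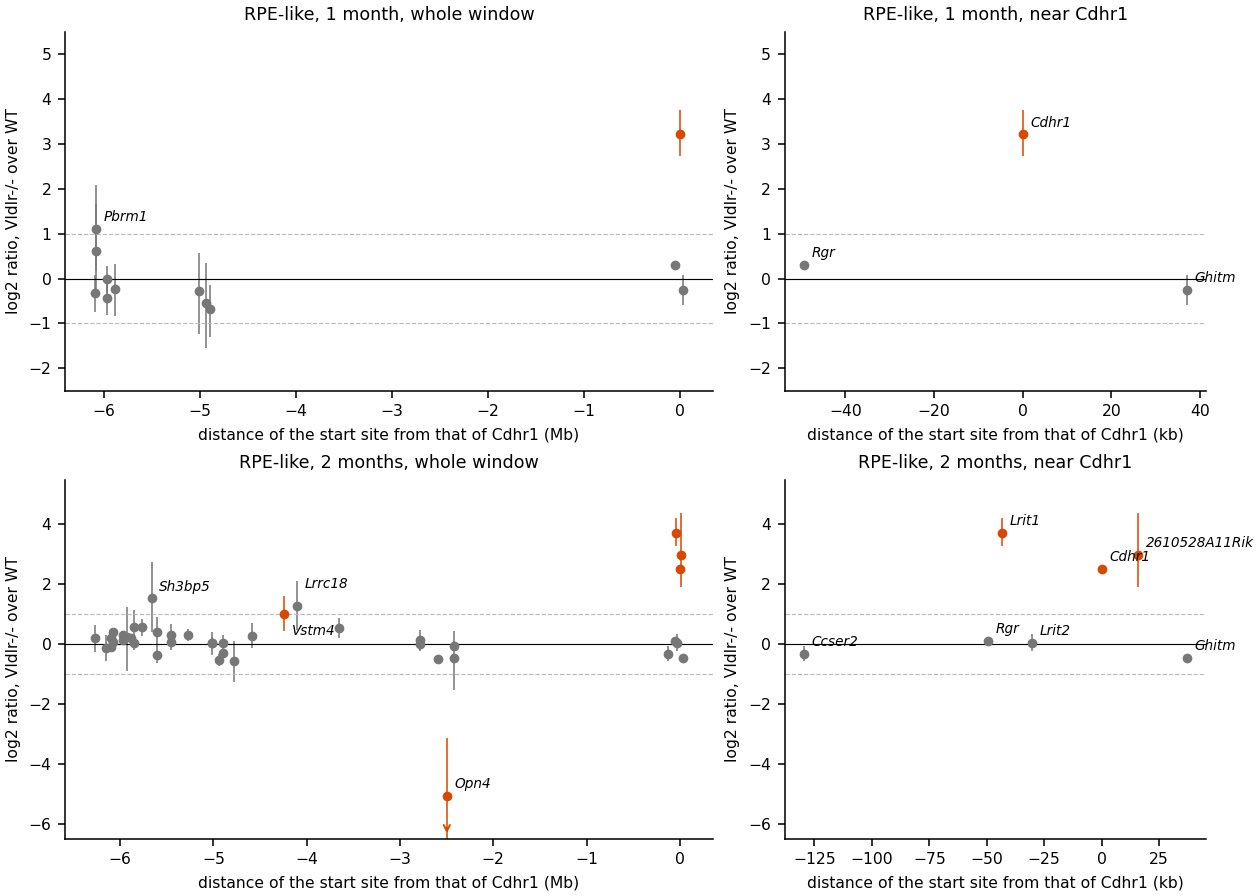
Log2 ratio of Vldlr-/- to WT in RPE-like barcodes for every compared gene of the chromosome 14 window, against the distance of its start site from that of Cdhr1, with 95% counting intervals. Members are orange and other genes grey, dashed lines mark 2-fold, and the interval of Opn4 runs below the axis. Beside Cdhr1, at 3.21 (1 month) and 2.50 (2 months), Rgr and Ghitm lie between -0.46 and 0.30.

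The ranks of the members among all genes compared in RPE describe how far apart they stood. Cdhr1 had the third highest ratio of 3633 genes at 1 month and ranked 38 of 11856 at 2 months. Lrit1 ranked 14, 2610528A11Rik 25 and Vstm4 376 at 2 months, and Opn4 was 6 from the lowest.

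Genes of the structures in which the members act were not 2-fold apart in RPE at 2 months, where they could be compared. Of 10 outer segment and disc genes, 6 had enough UMIs, 0 were 2-fold higher and 0 lower, and their median log2 ratio was -0.31, where that of all genes compared was 0.07. Prom1, whose protein binds photoreceptor cadherin, had 7 and 4 UMIs. Rom1, a disc rim protein, gave -0.31 and Abca4, a retinoid transporter of discs and RPE, -0.20. At 1 month Prph2, another disc rim protein, gave 2.67 on 6 and 25 UMIs, and RPE of that knockout library also held more rod-marker RNA (709 against 366 CPM). The part of rod RNA in this value was not tested.

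Of 12 genes of the photoreceptor to ON bipolar synapse, 6 were compared at 2 months and 0 passed 2-fold either way (median 0.04). Lrit3, the third member of the Lrit family, gave 0.52 on 129 and 95 UMIs, and Trpm1, a channel of ON bipolar cells and melanocytes that was also high in RPE, gave -0.23. Of 7 opsins and related receptors other than Opn4, 4 were compared at 2 months and 0 passed (median -0.29), Rrh, an RPE opsin, at -0.36. Of 6 melanopsin signalling genes, 3 were compared and 0 passed (median 0.18), with Gnaq at 0.26, Plcb4 at 0.18 and Gna11 at 0.02. At 1 month Gnaq gave 1.07 on 13 and 17 UMIs, the only one of 2 past 2-fold.

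The genes whose levels across classes were most like those of Cdhr1 were ranked by Pearson correlation of log2(CPM + 1) over 27 profiles of a class in a library, among 14119 genes. These profiles share 4 libraries and differ in depth, so the values are a description. The closest were Slc24a1 (r = 0.94), Lrit1 (0.93), Hsp90aa1 (0.91), Rd3 (0.90) and Rhpn1 (0.90). For Lrit1 they were Rd3 (0.95), Rhpn1 (0.94), Gnb3 (0.94), Cdhr1 (0.93) and Rom1 (0.92). In RPE-like barcodes Rd3 stood at 13.3, 53.9, 13.2 and 50.4 CPM and Gnb3 at 3.32, 16.2, 4.83 and 15.7 CPM, higher in both knockouts. Slc24a1 stood at 605, 736, 927 and 898 CPM and Rhpn1 at 6.65, 10.8, 8.45 and 8.91 CPM. Rom1 stood at 211, 218, 266 and 215 CPM and Hsp90aa1 at 1776, 1747, 2262 and 2078 CPM. The RPE profiles are among those ranked, so likeness in RPE is partly what chose these genes. Opn4 had no close match (Ppp1r1b first, 0.76), and Vstm4 was most like Cavin3 (0.97), Daam2 (0.95), Evc (0.95), Fkbp10 (0.94) and Hspb1 (0.94). 2610528A11Rik had too few UMIs to be ranked. Among the members themselves, Cdhr1 gave 0.93 with Lrit1, 0.57 with 2610528A11Rik, 0.15 with Opn4 and -0.21 with Vstm4.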

How the data were processed

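The deposited values are raw UMI counts per gene and barcode. Cell Ranger 6.0.2 (1 month) and 7.0.1 (2 months) made them, per the file headers, whereas Cell Ranger 3.0, Seurat 4.0 and mm9 stand in the submitters' processing notes. Intron and strand settings were not given in the sources used here. Coordinates are from GENCODE on GRCm38, matched by identifier (32158 of 32285).

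After the filters 6555 barcodes remained. Scrublet marked 28 (0.427%), too few to count as working, and these were removed. Barcodes were clustered in scanpy 1.11.5 (2000 variable genes, 30 components, 15 neighbours, Leiden resolution 1.0) into 29 clusters, without genes within 5 Mb of the members. Clusters were named from marker lists, with folds over a 50 CPM pseudocount chosen after they were seen, and 4 stayed unnamed, 1 of them by a rule added afterwards. Sncg, which lies in the window, was dropped from the ganglion list.

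Counts were summed per class and library, scaled to CPM and compared as log2 ratios with a pseudocount of 0.5 counts, for genes with at least 30 UMIs per pair. Intervals are exact Poisson, Clopper-Pearson or conditional binomial (95%). The limit for a count of 0 is 3 counts. Scripts were tested on simulated data. Genes named are the members, up to 2 neighbours on each side, window genes at least 2-fold apart, genes of the lists and the 5 most alike genes per member; Phf7, Capn7 and Mapk8 were chosen after their values were seen. Members and lists were chosen with earlier results of these data known. Alternatives concern filters, scaling, thinning, clustering, doublets, Malat1 and rod RNA. One gene of the lists, and results that need it, are not reported here.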

Additional observations from a re-analysis of the deposited data

Results flagged for a closer look

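Cdhr1 was also found in barcodes that the filters had left out, and in the Vldlr-/- library at 2 months its level there lay above that of the WT library of that age. The 494 left-out barcodes of that library held 109 Cdhr1 UMIs, 81.7 CPM, against 9 UMIs (7.02 CPM) in 493 left-out WT barcodes. At 1 month the left-out barcodes held 5 UMIs in each genotype (6.17 CPM in WT and 3.94 CPM in knockout). The rod markers in the left-out barcodes summed to 338 CPM in WT and 120 CPM in knockout at 2 months. Where the Cdhr1 RNA of these barcodes came from was not tested.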

How the results depend on the processing

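Cdhr1 and Lrit1 stayed more than 2-fold higher in knockout RPE at 2 months under all 11 alternatives, with log2 ratios of 2.40 to 3.41 and 2.98 to 3.93. The ratio of 2610528A11Rik was past 2-fold under 10 of them (1.51 to 3.62). The lowest, at or above 1000 CPM of Malat1, rests on 3 and 11 UMIs, and its interval included 0 (-0.25 to 4.15). Thinning left this gene 0 and 1 UMIs, too few to place. Opn4 gave -5.12 to -4.08 in the 9 alternatives with a knockout UMI and was at least 7.86-fold lower under 1000 CPM of Malat1 (68 and 0 UMIs). Thinned, it had 9 and 0 UMIs, and its fitted value rests on the pseudocount and does not place it past 2-fold. The values outside the counting interval came from thinning to 1000 UMIs (Cdhr1 2.61, Lrit1 2.98, Opn4 -2.92, Vstm4 0.23), from barcodes under 1000 CPM of Malat1 (Cdhr1 2.40) and from those at or above it (Cdhr1 3.41, 2610528A11Rik 1.51, Vstm4 1.77). The cause was not tested. Vstm4 in RPE kept its direction in these, but its ratio lay under 2-fold in 6 of 11, for example at 0.95 with the median log2 ratio set to 0 and 0.85 under 1000 CPM of Malat1. At 1 month Cdhr1 gave 2.95 to 3.46 and Lrit1 3.05 to 3.91. The fibroblast ratio of Vstm4 at 1 month ran from -1.13 to 0.11 when single clusters, chosen after the data were seen, were included.

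With a minimum of 10 UMIs, 5 of 29 window genes were 2-fold apart at 1 month and 9 of 48 at 2 months, where 15.5% and 8.30% of all genes compared were. With a minimum of 100, 1 of 8 was at 1 month and 3 of 36 at 2 months, where 1.71% and 1.86% of all genes were. At 30 UMIs they were 2 of 12 and 7 of 42. The minimum sets how many genes are compared. A window reaching 5 Mb gave 2 of 16 at 1 month and 8 of 56 at 2 months. At that minimum of 30 UMIs, 6.17% and 4.35% of all genes compared were 2-fold apart. All these window counts include members, which this contrast chose, so nothing is read from them. Thinning to 2000 UMIs gave RPE shares with Cdhr1 of 11.7% and 57.9% at 1 month and 14.2% and 52.4% at 2 months (WT and knockout). No paired analysis was run, as each group is 1 library and the labels give no replicate numbers. The ages are conditions counted with different software, and a fit that takes them as pairs was not run. Leaving out a library would leave a group empty. Depth limits 2610528A11Rik, Opn4 and Vstm4 at 1 month, where each had at most 2 UMIs per library in RPE.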
